A study of Homo sapiens with 8 samples.

Results

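The 47 genes described here are genes that low oxygen is known to induce, together with the enzymes of glycolysis and the genes that sense oxygen. They were selected on their names, as a list of known genes, and all 47 were among the 35805 genes listed and the 14665 tested. They comprise 15 glycolytic enzymes, 6 glucose transporters and regulators of glycolysis, 5 oxygen-sensing genes and 21 other targets of hypoxia-inducible factors. The filter applied to them was a mean log2 value over the libraries at or above 0. The member nearest that bound was ADM with a mean of 1.91, the next was PLOD2 with 3.23, and no member fell below it. The list was drawn up with earlier results of these libraries known, so counts of its members describe the list and are not independent evidence about it.

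RNA was sequenced from K562 cells, a human chronic myeloid leukaemia line with erythroid features. Every group carried dCas9-KRAB, a Cas9 without nuclease activity fused to a repressor domain, which silences a gene when a guide RNA brings it to the promoter (CRISPR interference). The groups were cells with the guide sg1-IRF2, cells with the guide sg2-IRF2, cells with the control guide sgAAVS1, which is directed at the AAVS1 safe-harbour locus, and cells that were not transduced. Each of the 4 groups had 2 libraries, and RNA from cells with a guide was taken 7 days after transduction. IRF2 encodes a transcription factor of the interferon regulatory factor family. No label mentions low oxygen or any other stress, and none says whether the dCas9-KRAB line is a single clone or whether the replicates were separate cultures, so p-values measure only the spread between libraries.

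Cells respond to low oxygen through hypoxia-inducible factors, dimers of an oxygen-regulated alpha subunit (HIF-1alpha, encoded by HIF1A, or HIF-2alpha, encoded by EPAS1) and the stable partner ARNT. With oxygen present, prolyl hydroxylases of the EGLN family mark the alpha subunit, and the VHL ubiquitin ligase then sends it for degradation. When it escapes, it binds short DNA sites with the core ACGTG or GCGTG and raises transcription of genes for glucose uptake, glycolysis, blood vessel growth, pH control, collagen modification and mitochondrial turnover. EGLN3 and several histone demethylases are themselves targets, and induction of EGLN3 acts as negative feedback.

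The promoter windows of 5 members that carry that core are shown. EGLN3 and MXI1, which passed the test in 5 and 4 of the comparisons described later, have neither form of the core in their windows and are not shown. Of the windows shown, 4 are from genes that passed the test and 1 is from a gene that did not. Each is the 250 bases before the RefSeq start site on GRCh38.p14, written 5′ to 3′ on the strand of the gene, with capitals marking ACGTG or GCGTG on either strand (read as CACGT or CACGC where it lies on the other strand, so that overlapping matches give CACGTG). ENO2 (neuron-type enolase, chr12:6914330-6914579, plus strand), KDM3A (a histone H3 lysine 9 demethylase, chr2:86441121-86441370, plus strand), PPFIA4 (a liprin scaffold protein, chr1:203026241-203026490, plus strand) and BNIP3 (a receptor for mitophagy, chr10:131981924-131982173, minus strand) were each higher in sg2-IRF2 than in sgAAVS1 cells. LDHA (lactate dehydrogenase A, chr11:18394313-18394562, plus strand) has 5 matches and passed the test in no comparison.
ENO2: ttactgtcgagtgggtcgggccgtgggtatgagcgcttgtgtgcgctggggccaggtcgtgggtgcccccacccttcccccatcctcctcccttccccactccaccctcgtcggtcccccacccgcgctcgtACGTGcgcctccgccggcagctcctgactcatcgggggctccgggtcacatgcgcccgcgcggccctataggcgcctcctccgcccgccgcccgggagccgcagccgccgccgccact
KDM3A: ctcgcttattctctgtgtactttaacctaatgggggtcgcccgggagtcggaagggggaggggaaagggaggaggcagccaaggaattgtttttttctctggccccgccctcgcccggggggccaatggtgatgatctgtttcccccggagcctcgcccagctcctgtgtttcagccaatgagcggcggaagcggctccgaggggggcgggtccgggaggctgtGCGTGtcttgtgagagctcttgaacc
PPFIA4: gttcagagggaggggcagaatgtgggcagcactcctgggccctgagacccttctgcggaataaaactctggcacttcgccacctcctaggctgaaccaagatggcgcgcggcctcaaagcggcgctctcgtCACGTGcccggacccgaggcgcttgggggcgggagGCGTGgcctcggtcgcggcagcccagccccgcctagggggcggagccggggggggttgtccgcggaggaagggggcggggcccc
BNIP3: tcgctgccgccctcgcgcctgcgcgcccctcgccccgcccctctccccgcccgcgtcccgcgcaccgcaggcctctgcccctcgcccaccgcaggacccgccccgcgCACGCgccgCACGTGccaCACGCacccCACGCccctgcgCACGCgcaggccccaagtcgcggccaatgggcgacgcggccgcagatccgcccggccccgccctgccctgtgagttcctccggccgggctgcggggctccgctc
LDHA: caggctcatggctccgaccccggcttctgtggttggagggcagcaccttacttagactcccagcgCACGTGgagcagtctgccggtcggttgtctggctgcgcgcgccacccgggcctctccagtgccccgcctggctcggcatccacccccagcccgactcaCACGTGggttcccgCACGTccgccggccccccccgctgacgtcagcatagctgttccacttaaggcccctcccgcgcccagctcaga

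RefSeq promoter windows were matched for 39 of the 47 members. ACGTG occurred in 21 of them (53.8%), against 18.5% of all 35116 RefSeq windows, and ACGTG or GCGTG occurred in 29 (74.4%), against 43.2%. Each member counts once, while the 35116 windows were not limited to tested genes or to 1 window per gene. The shares are therefore not like for like. Among the matched members that passed the test in at least 1 comparison, 8 of 16 held ACGTG (50%), and among those that passed in none, 13 of 23 did (56.5%). Of the 16, EGLN3, MXI1, PDK1 and PKM had neither core in this window. A match is a run of letters and not a measured binding site.

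The libraries held 5248359 to 6738348 reads over the listed genes. Values are given as the deposited log2 of scaled reads after the library medians were made equal, which shifted no library by more than 0.08. IRF2, the targeted gene, had log2 values of -0.32 and 0.50 in sg1-IRF2 libraries (4 and 8 reads) and 1.96 and 1.99 in sg2-IRF2 libraries (22 and 21 reads). It had 5.43 and 5.61 in sgAAVS1 libraries and 5.62 and 5.58 in untransduced libraries, so both IRF2 groups were silenced as labelled, more deeply with sg1-IRF2. All 10 K562 erythroid markers had reads, while CD2 (T cell), MS4A1 (B cell) and COL3A1 (fibroblast) had 0. Summed fibroblast markers ran from 193 to 240 reads in sg1-IRF2, 271 to 297 in sg2-IRF2, 246 to 374 in sgAAVS1 and 339 to 358 in untransduced libraries, and their part in the results was not tested.

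Across the 47 genes, the guides to IRF2 did not have the same result. With sg2-IRF2, 18 of 47 members were higher and none lower than in sgAAVS1 libraries, while 3.41% of all genes tested were called in that comparison, 1.79% higher and 1.62% lower. With sg1-IRF2, none was higher and 1 (GBE1) was lower, with 0.791% of all genes called. The direct comparison of sg1-IRF2 with sg2-IRF2 had 17 members lower and none higher, with 1.58% of all genes called, 0.586% higher and 0.989% lower. A call is an adjusted p under 0.05 in limma's moderated test with Benjamini-Hochberg adjustment over all 14665 genes.

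The control guide differed from untransduced cells as well. In sgAAVS1 against untransduced libraries 10 members were lower and none higher, with 4.42% of all genes called, 2.06% higher and 2.36% lower. In sg1-IRF2 against untransduced libraries 13 were lower and none higher, with 5.34% of all genes called, 2.4% higher and 2.94% lower. In sg2-IRF2 against untransduced libraries limma called 0 members, with 0.798% of all genes called (0.655% lower) and a smallest adjusted p of 0.07 among members (FUT11). At an unadjusted p under 0.05 there were 14 members, with 9.05% of all genes. The alternatives run gave between 0 and 5 members there, and limma-voom on the recovered reads gave 0. With the mean of both guides against sgAAVS1, 4 members were higher (VEGFA, NDRG1, EGLN3 and BNIP3) and none lower, with 1.42% of all genes called, 0.573% higher and 0.846% lower. These comparisons share libraries: those with sgAAVS1 share its pair, and those with untransduced cells share that pair.

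**Figure D1:**
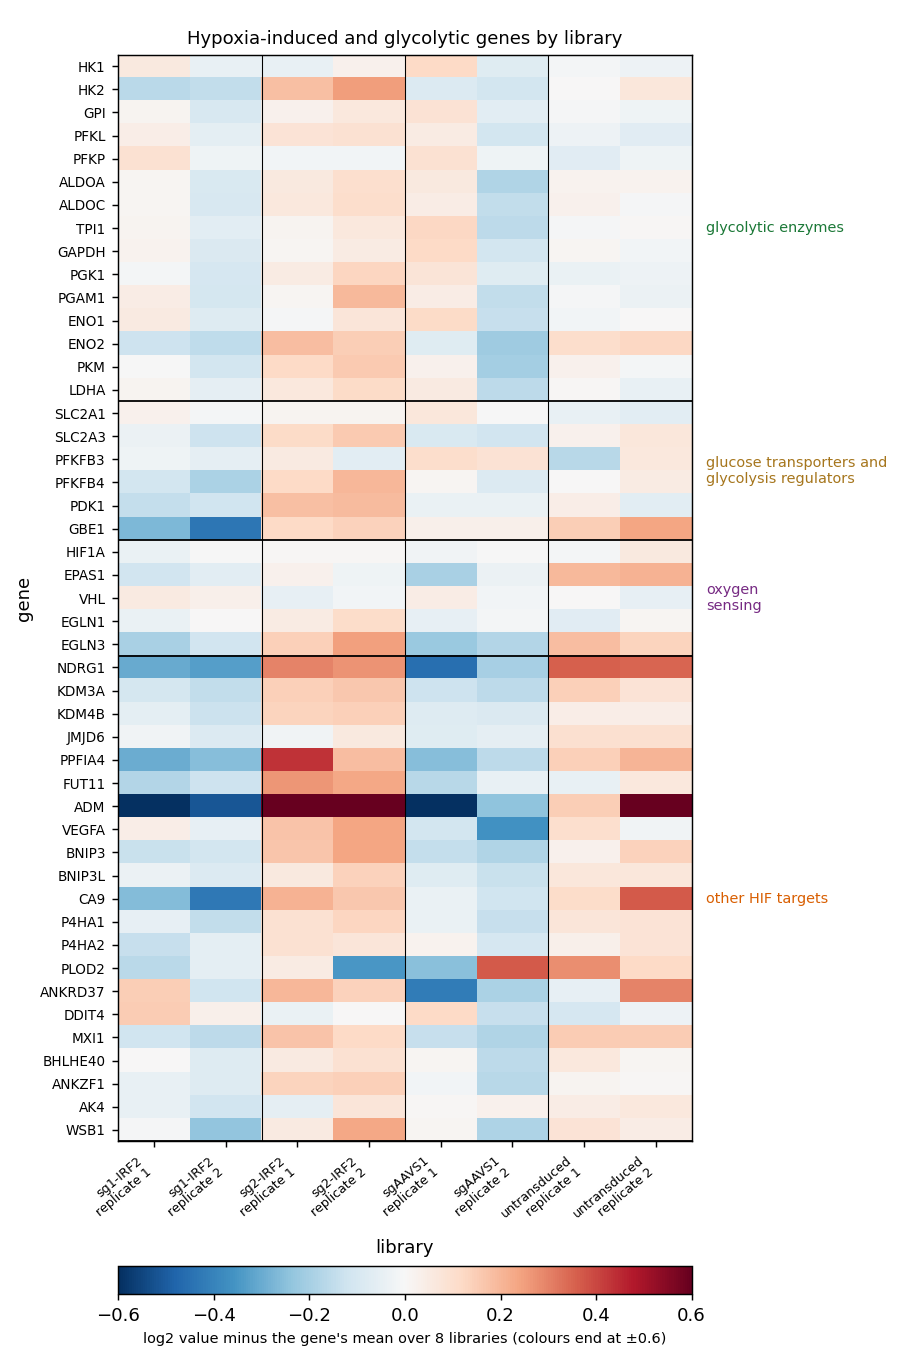
Each row is a member and each column a library, and the colour is the log2 value minus that gene's mean over the 8 libraries, with colours ending at ±0.6. In the block of other targets, most rows are above their mean in sg2-IRF2 and untransduced libraries and below it in sg1-IRF2 and sgAAVS1 libraries, while most glycolytic enzymes are above their mean in replicate 1 of sgAAVS1 and below it in replicate 2.

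Differences were modest in size. Over the 47 members, sg2-IRF2 minus sgAAVS1 had a median of 0.14 (log2), against 0.00 over all genes tested, and sg1-IRF2 minus sg2-IRF2 had a median of -0.16, against 0.00. sgAAVS1 minus untransduced had a median of -0.10 and sg1-IRF2 minus untransduced one of -0.12, against 0.01 over all genes in both. On the deposited values without aligned medians the median of all genes was itself 0.11 for sg1-IRF2 minus sg2-IRF2, and that of the members was -0.04. All 63 member calls kept their direction under every alternative that gave a value. None remained when the test used no mean-variance trend, where the smallest adjusted p among members was 0.052 (GBE1, sg1-IRF2 against untransduced). In bulk RNA, fewer cells that express a gene and less RNA per cell cannot be told apart.

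**Figure D2:**
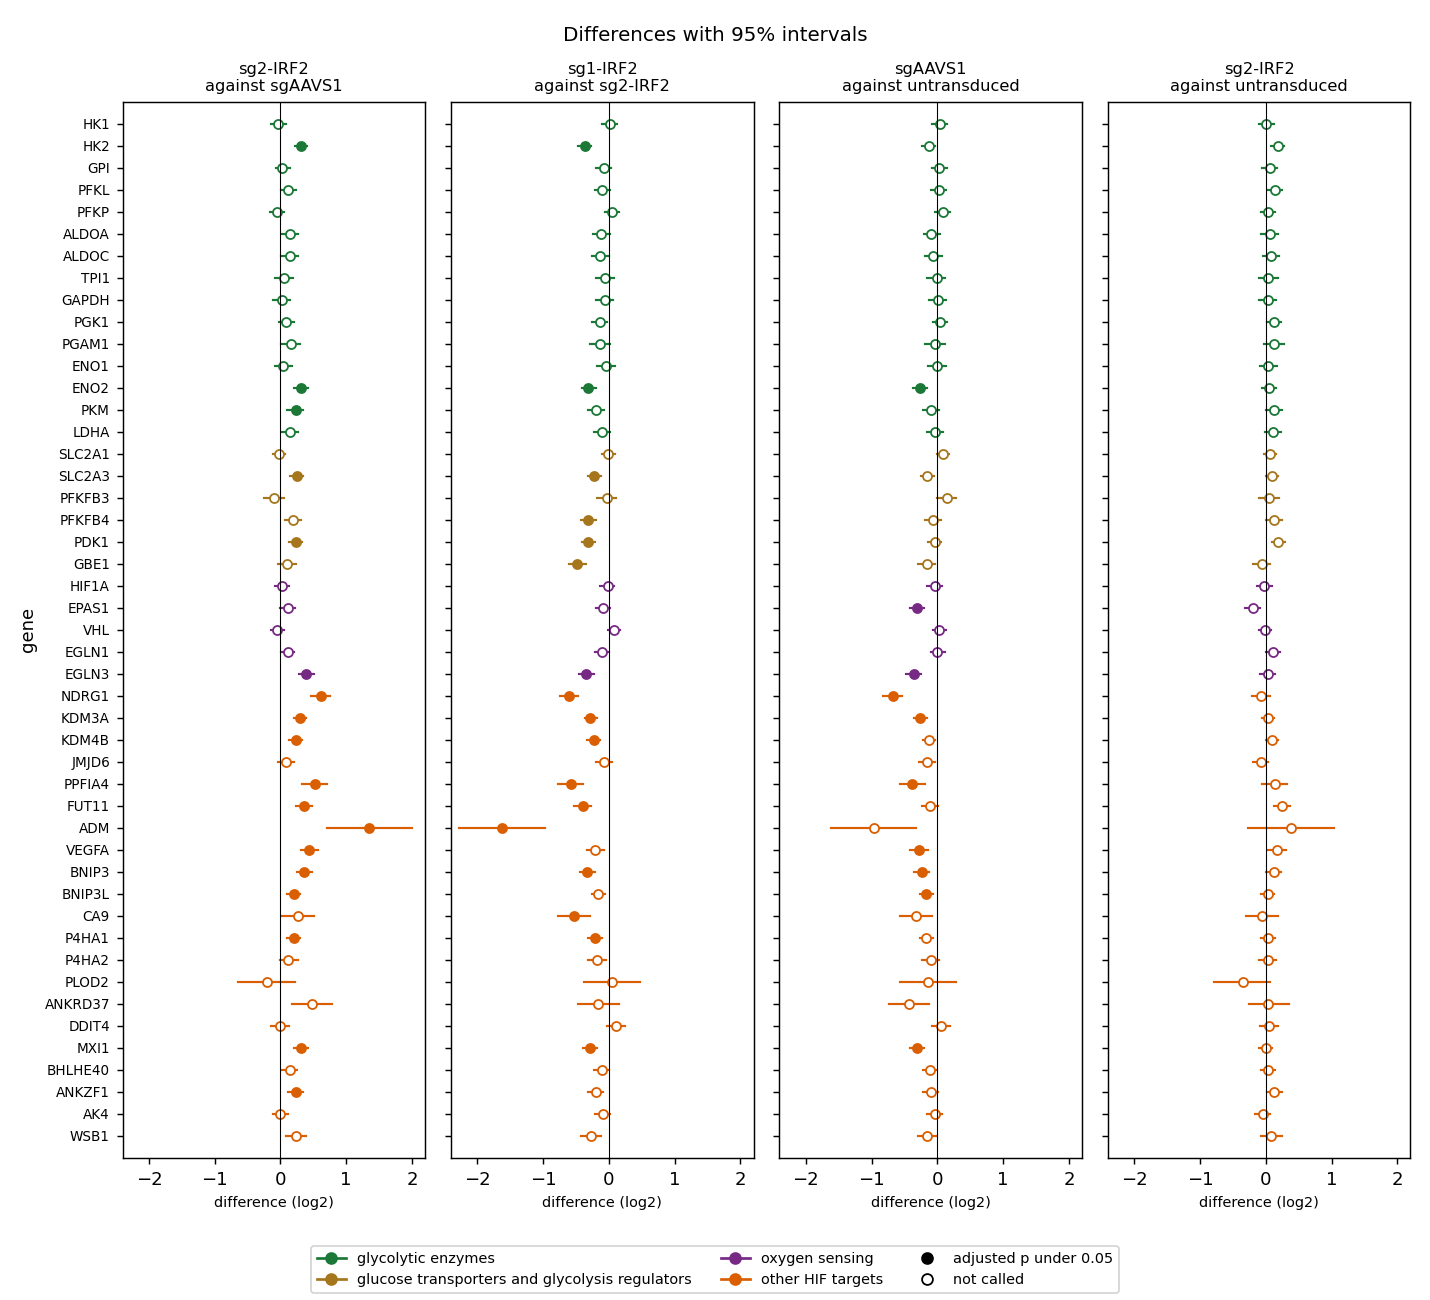
Points are log2 differences with 95% intervals for the 47 members in 4 comparisons, coloured by role and filled where the adjusted p is under 0.05. Filled points lie right of 0 for sg2-IRF2 against sgAAVS1 (18 genes), left of 0 for sg1-IRF2 against sg2-IRF2 (17) and for sgAAVS1 against untransduced (10), and none is filled for sg2-IRF2 against untransduced.

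Oxygen sensing comes first, since these genes act upstream of the rest. Transcripts of HIF1A, VHL and EGLN1 passed the test in no comparison. HIF1A had log2 values of 6.69 and 6.73 in sg1-IRF2, 6.74 and 6.74 in sg2-IRF2, 6.71 and 6.73 in sgAAVS1 and 6.72 and 6.79 in untransduced libraries. All 8 lay within 0.10 of each other, with both sg2-IRF2 libraries just above the sg1-IRF2 and sgAAVS1 libraries and between the untransduced ones. Its difference was 0.02 for sg2-IRF2 minus sgAAVS1 (95% interval -0.09 to 0.13) and -0.02 for sg1-IRF2 minus sg2-IRF2 (-0.13 to 0.08). HIF-1alpha is mainly controlled at the protein level, which was not measured. VHL, the substrate receptor of the ubiquitin ligase, differed by -0.05 for sg2-IRF2 minus sgAAVS1 (-0.14 to 0.05), and EGLN1, the main prolyl hydroxylase in most cells, by 0.11 (0.01 to 0.21, limma adjusted p = 0.27).

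EGLN3, the hydroxylase that is strongly induced by the factors it restrains, was the oxygen-sensing gene with a call between the guides. The log2 values of EGLN3 were 6.52 and 6.60 in sg1-IRF2, 6.86 and 6.96 in sg2-IRF2, 6.49 and 6.54 in sgAAVS1 and 6.90 and 6.85 in untransduced libraries. Both sg2-IRF2 and both untransduced libraries lay above every sg1-IRF2 and sgAAVS1 library. EGLN3 was 1.31-fold higher in sg2-IRF2 than in sgAAVS1 cells (log2 difference 0.39 ± 0.05, SE, limma adjusted p = 0.00024), and that call held in all 8 fits that left out 1 library. For sgAAVS1 minus untransduced it was -0.36 ± 0.05 (limma adjusted p = 0.00075), again in all 8 fits. For sg1-IRF2 minus untransduced it was -0.32 ± 0.05 (limma adjusted p = 0.0016, and 0.053 without untransduced replicate 1). Between sg1-IRF2 and sg2-IRF2 the difference was -0.35 ± 0.05 (limma adjusted p = 0.0021), and the call was lost without replicate 1 of sg1-IRF2 or replicate 2 of sg2-IRF2 (adjusted p up to 0.11). The mean of both guides was 0.22 ± 0.05 above sgAAVS1 (limma adjusted p = 0.021), a call lost without replicate 2 of either IRF2 guide or either untransduced library (up to 0.15).

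EPAS1, which encodes HIF-2alpha, was highest in untransduced cells. Its log2 values were 7.38 and 7.43 in sg1-IRF2, 7.52 and 7.47 in sg2-IRF2, 7.30 and 7.46 in sgAAVS1 and 7.69 and 7.70 in untransduced libraries, and all 6 libraries with a guide lay below both untransduced ones. The difference from untransduced cells was -0.31 ± 0.05 for sgAAVS1 (limma adjusted p = 0.0019) and -0.28 ± 0.05 for sg1-IRF2 (0.0028). For sg2-IRF2 it was -0.20 ± 0.05 (limma adjusted p = 0.1, not called). The sgAAVS1 call was lost without untransduced replicate 2 (adjusted p = 0.06), and the sg1-IRF2 call was lost without sg1-IRF2 replicate 1 or either untransduced library (up to 0.068). Another 18 genes of the pathway were tested, among them partners, cofactors and ligase subunits such as ARNT, EP300 and CUL2. Of these limma called 0 in each of the 7 comparisons, where 0.791% to 5.34% of all genes were called. At an unadjusted p under 0.05 there were 0 to 2 of the 18, where 6.44% to 19.2% of all genes were. With limma-voom 0 were called as well. At such shares a list of 18 holds few calls, so these counts do not set it apart from all genes.

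**Figure D3:**
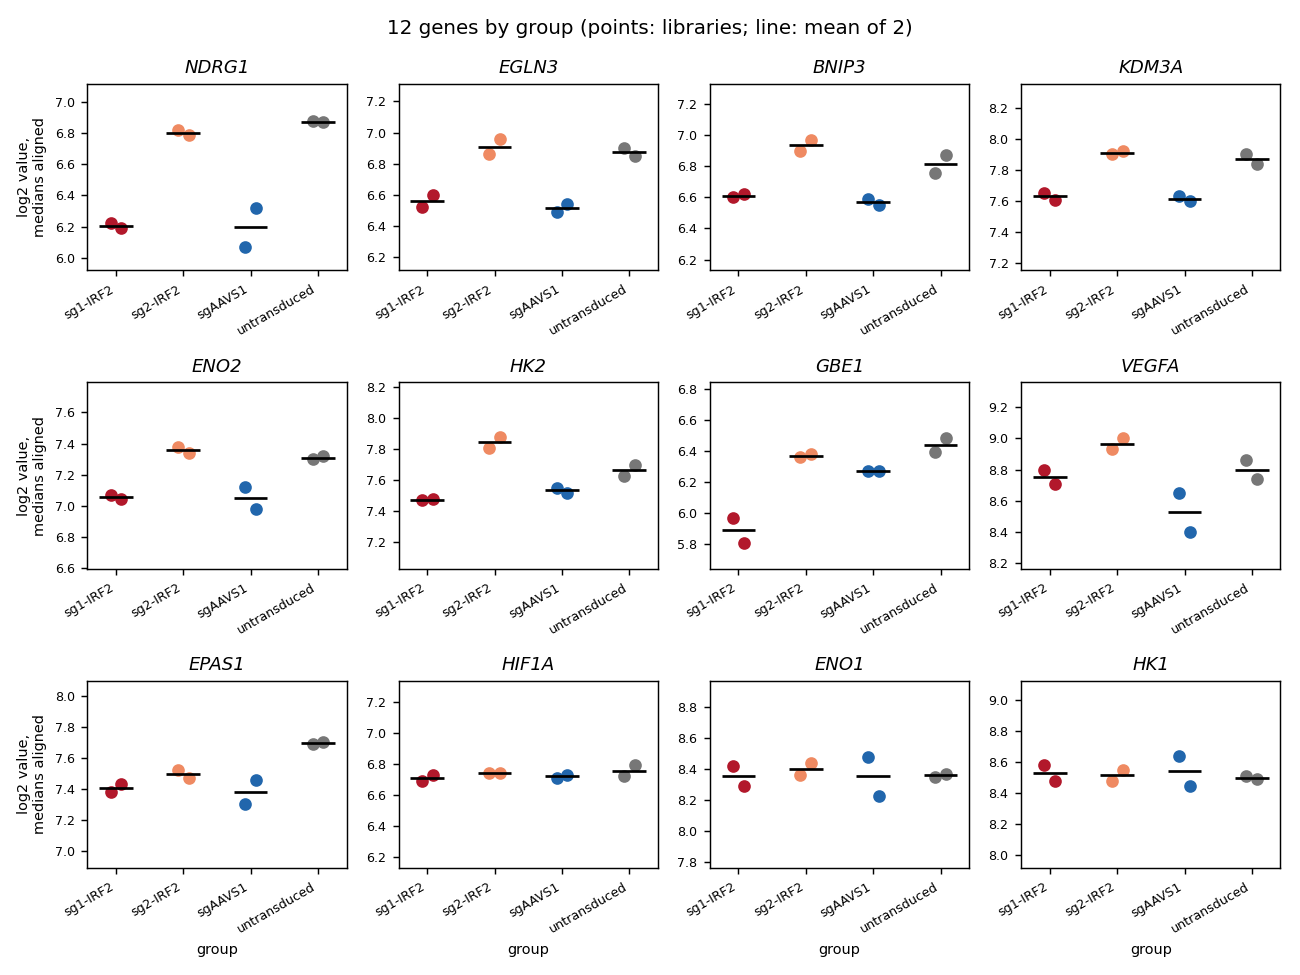
Log2 values of 12 members by group, with points for libraries, a line for the mean of 2 and a span of 1.2 log2 units on every axis. NDRG1, EGLN3, BNIP3, KDM3A and ENO2 are high in sg2-IRF2 and untransduced libraries, GBE1 is lowest in sg1-IRF2, VEGFA is lowest in sgAAVS1, EPAS1 is highest in untransduced libraries, and HIF1A, ENO1 and HK1 passed the test in no comparison.

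Among the 15 glycolytic enzymes, which split glucose into pyruvate and lactate, calls fell on HK2, ENO2 and PKM. All 3 were higher in sg2-IRF2 than in sgAAVS1 cells and the other 12 were not called, where 1.79% of all genes were called higher. The median of the 15 differences was 0.12, against 0.00 over all genes, and on the deposited values without aligned medians it was 0.04, against -0.07 over all genes. In sg1-IRF2 against sg2-IRF2 cells 2 of the 15, HK2 and ENO2, were lower, where 0.989% of all genes were called lower. The median of the 15 was -0.11, against 0.00 over all genes, and without aligned medians it was 0.00, against 0.11 over all genes. Against untransduced cells ENO2 was lower in sgAAVS1 cells, where 2.36% of all genes were called lower. HK2 and ENO2 were lower in sg1-IRF2 than in untransduced cells, where 2.94% of all genes were.

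HK2, the inducible hexokinase that traps glucose in the cell, had log2 values of 7.47 and 7.48 in sg1-IRF2, 7.81 and 7.88 in sg2-IRF2, 7.55 and 7.52 in sgAAVS1 and 7.63 and 7.70 in untransduced libraries. The sg2-IRF2 libraries lay above all others and the sg1-IRF2 libraries below all others. HK2 was 1.24-fold higher in sg2-IRF2 than in sgAAVS1 cells (log2 difference 0.31 ± 0.05, limma adjusted p = 0.0004) and differed by -0.37 ± 0.05 between sg1-IRF2 and sg2-IRF2 (0.00023), and both calls held in all 8 fits that left out 1 library. Its difference of -0.19 ± 0.05 between sg1-IRF2 and untransduced cells (limma adjusted p = 0.019) was lost without any 1 of the libraries in those groups (up to 0.23). HK1, the constitutive hexokinase, had values between 8.45 and 8.64 in all groups and a difference of -0.03 for sg2-IRF2 minus sgAAVS1 (95% interval -0.14 to 0.09).

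ENO2, an enolase isoform that responds to hypoxia, had log2 values of 7.07 and 7.04 in sg1-IRF2, 7.38 and 7.34 in sg2-IRF2, 7.12 and 6.98 in sgAAVS1 and 7.30 and 7.32 in untransduced libraries. The sg2-IRF2 and untransduced libraries lay above all of the others. ENO2 was higher in sg2-IRF2 than in sgAAVS1 cells by 0.31 ± 0.05 (log2, limma adjusted p = 0.0012), a call that held in all 8 fits. The difference was -0.31 ± 0.05 for sg1-IRF2 minus sg2-IRF2 (limma adjusted p = 0.003), -0.26 ± 0.05 for sgAAVS1 minus untransduced (0.0052) and -0.26 ± 0.05 for sg1-IRF2 minus untransduced (0.0052). Each of those was lost without either library of the second-named group (adjusted p up to 0.087, 0.099 and 0.093), and the comparisons with sg1-IRF2 were also lost without sg1-IRF2 replicate 2. ENO1, the housekeeping enolase, differed by 0.04 for sg2-IRF2 minus sgAAVS1 (95% interval -0.09 to 0.18).

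PKM, pyruvate kinase, had log2 values of 8.37 and 8.26 in sg1-IRF2, 8.49 and 8.53 in sg2-IRF2, 8.40 and 8.17 in sgAAVS1 and 8.40 and 8.36 in untransduced libraries. The sg2-IRF2 libraries were above all others, and the other groups overlapped. Its call for sg2-IRF2 against sgAAVS1 (0.23 ± 0.06, limma adjusted p = 0.037) was kept in 3 of the 8 fits that left out 1 library, and it was lost without either sg2-IRF2 library, sgAAVS1 replicate 2 or either untransduced library (up to 0.32). At the enzyme steps in between, the sg2-IRF2 minus sgAAVS1 difference was 0.14 for ALDOA, an aldolase (95% interval 0.02 to 0.27), and 0.02 for GAPDH (-0.11 to 0.15). PGK1, phosphoglycerate kinase, differed by 0.09 (-0.02 to 0.20) and LDHA, which makes lactate, by 0.14 (0.02 to 0.26). None of these 4 was called in any comparison. PGK1 exons overlap ATP7A on the same strand, which had 7389 reads over all libraries.

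The replicates of sgAAVS1 differed from each other over the enzymes as a group. All 15 were higher in replicate 1 than in replicate 2, by a median of 0.19 (log2), and 14 of 15 were higher in replicate 1 than in replicate 2 of sg1-IRF2, by a median of 0.10. In sg2-IRF2 the corresponding median was -0.04 and in untransduced cells 0.02. Over all genes, the chi-square per gene between replicates was 0.777 in sg1-IRF2, 0.644 in sg2-IRF2, 1.69 in sgAAVS1 and 0.818 in untransduced libraries, where counting noise alone gives 1. Replicates outside sgAAVS1 thus differed less than independent counts would, for a reason that was not tested. Standard errors and p-values may therefore be too small. The model also shares its spread across groups, which can make them too small above all in comparisons with sgAAVS1. In comparisons without sgAAVS1, its pair instead widens the shared spread. Leaving out either sgAAVS1 library gave more calls in sg1-IRF2 against sg2-IRF2 and in either IRF2 guide against untransduced cells. The lack of calls in sg2-IRF2 against untransduced cells thus depends in part on a group outside that comparison. Without sgAAVS1 replicate 1, 28 of 47 members were called in sg2-IRF2 against sgAAVS1, and without either sg2-IRF2 library 10 were.

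The enzymes had more reads per exonic base than the other roles by median. In the library with most reads of each gene, the median was 0.25 reads per exonic base for the enzymes, 0.095 for the transporters and regulators, 0.123 for oxygen sensing and 0.101 for the other targets. The highest density among members was 0.587 in DDIT4, and GAPDH had 0.411. How duplicate reads were handled is not given in the sources used here, and whether differences of densely read genes are compressed was not tested. GAPDH (62), BNIP3 (39) and PGAM1 (13) have many named pseudogenes, and LDHA and AK4 have 6 each, so reads may be split between copies.

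**Figure D4:**
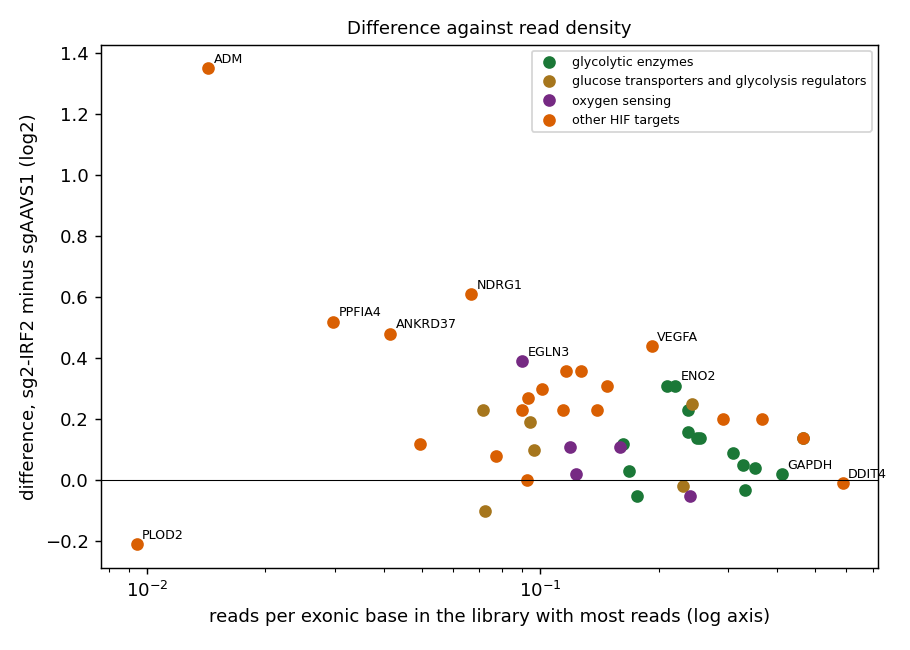
The log2 difference of sg2-IRF2 minus sgAAVS1 is plotted for each member against its reads per exonic base in the library with most reads, on a log axis, coloured by role. Members read more densely than 0.4 reads per base, among them ALDOA (0.14), GAPDH (0.02) and DDIT4 (-0.01), lie between -0.01 and 0.14, and the widest spread is among the sparsely read genes, with ADM at 1.35 and PLOD2 at -0.21.

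Glucose transporters and regulators of glycolysis set how much sugar enters the pathway and where it goes. SLC2A1, the ubiquitous transporter GLUT1, passed the test in no comparison and differed by -0.02 for sg2-IRF2 minus sgAAVS1 (95% interval -0.12 to 0.07). SLC2A3, the high-affinity transporter GLUT3, had log2 values of 7.89 and 7.80 in sg1-IRF2, 8.04 and 8.08 in sg2-IRF2, 7.83 and 7.81 in sgAAVS1 and 7.95 and 7.99 in untransduced libraries. The sg2-IRF2 libraries were above all others. SLC2A3 was higher in sg2-IRF2 than in sgAAVS1 cells by 0.25 ± 0.05 (limma adjusted p = 0.0041, and 0.12 without sg2-IRF2 replicate 2). Its difference of -0.22 ± 0.05 between sg1-IRF2 and sg2-IRF2 (limma adjusted p = 0.018) held in 3 of 8 fits, and was lost without sg1-IRF2 replicate 2, either sg2-IRF2 library or either untransduced one (up to 0.31).

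PDK1, the kinase that shuts off pyruvate dehydrogenase and so diverts pyruvate from the mitochondria, had log2 values of 7.23 and 7.25 in sg1-IRF2, 7.55 and 7.56 in sg2-IRF2, 7.33 and 7.33 in sgAAVS1 and 7.41 and 7.31 in untransduced libraries. The sg2-IRF2 libraries were above all others and the sg1-IRF2 libraries below all others. It was higher in sg2-IRF2 than in sgAAVS1 cells by 0.23 ± 0.05 (limma adjusted p = 0.0095, and up to 0.14 without either sg2-IRF2 library) and differed by -0.31 ± 0.05 between sg1-IRF2 and sg2-IRF2 (0.0013, and 0.054 without sg2-IRF2 replicate 2). PFKFB4, a bifunctional enzyme that sets the level of the glycolytic activator fructose 2,6-bisphosphate, had values of 6.44 and 6.36 in sg1-IRF2, 6.67 and 6.75 in sg2-IRF2, 6.56 and 6.47 in sgAAVS1 and 6.55 and 6.60 in untransduced libraries. Again sg2-IRF2 was highest and sg1-IRF2 lowest, with no overlap. The guides differed by -0.31 ± 0.06 (sg1-IRF2 minus sg2-IRF2, limma adjusted p = 0.0066), a call lost without replicate 2 of either guide (up to 0.23). Its relative PFKFB3 was not called in any comparison.

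GBE1, the glycogen branching enzyme, had another pattern. Its log2 values were 5.97 and 5.81 in sg1-IRF2, 6.36 and 6.38 in sg2-IRF2, 6.27 and 6.27 in sgAAVS1 and 6.39 and 6.48 in untransduced libraries. Both sg1-IRF2 libraries lay below the other 6. GBE1 was the member called in sg1-IRF2 against sgAAVS1 cells, where it was lower by -0.38 ± 0.06 (0.77-fold, limma adjusted p = 0.0018, and 0.098 without sg1-IRF2 replicate 2). It was lower by -0.48 ± 0.06 in sg1-IRF2 than in sg2-IRF2 cells (limma adjusted p = 0.00035) and by -0.54 ± 0.06 in sg1-IRF2 than in untransduced cells (1.9e-05), and both held in all 8 fits. For sg2-IRF2 minus sgAAVS1 it was not called. Among 18 tested genes of glycogen metabolism outside the list, 2 were higher in sg2-IRF2 than in sgAAVS1 cells and none was lower. In that comparison 1.79% of all genes were called higher. The 2 were PPP1R3B and PPP1R3E, which target protein phosphatase 1 to glycogen, higher by 0.29 ± 0.06 and 0.33 ± 0.08 (limma adjusted p = 0.0064 and 0.028).

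The 21 other targets held most of the calls. For sg2-IRF2 against sgAAVS1, 12 were higher, where 1.79% of all genes were called higher. The median difference was 0.23 over the 21, against 0.12 over the enzymes. For sg1-IRF2 against sg2-IRF2, 10 were lower, with a median of -0.21, where 0.989% of all genes were called lower. For sgAAVS1 against untransduced cells 7 were lower (median -0.17), where 2.36% of all genes were called lower. For sg1-IRF2 against untransduced cells 8 were lower (median -0.16), where 2.94% of all genes were. No test of the enzymes against the other targets was made, since both lists were chosen with the results known.

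NDRG1, a cytoplasmic stress-response protein and one of the most consistently hypoxia-induced genes, had the smallest adjusted p of the members in 4 of the 7 comparisons. Its log2 values were 6.22 and 6.19 in sg1-IRF2, 6.82 and 6.79 in sg2-IRF2, 6.07 and 6.32 in sgAAVS1 and 6.88 and 6.87 in untransduced libraries. The sg2-IRF2 and untransduced libraries were well above the rest, with no overlap. NDRG1 was 1.52-fold higher in sg2-IRF2 than in sgAAVS1 cells (log2 difference 0.61 ± 0.07, limma adjusted p = 8.2e-06). The difference was -0.60 ± 0.07 for sg1-IRF2 minus sg2-IRF2 (limma adjusted p = 0.0001), -0.68 ± 0.07 for sgAAVS1 minus untransduced (3.6e-06) and -0.68 ± 0.07 for sg1-IRF2 minus untransduced (1.8e-06). Those 4 calls held in all 8 fits that left out 1 library. For both guides together against sgAAVS1 the difference was 0.31 (limma adjusted p = 0.0055), and 0.055 without sgAAVS1 replicate 1.

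Mitochondrial turnover was represented by BNIP3 and BNIP3L, paired receptors that recruit mitochondria to autophagosomes. BNIP3 had log2 values of 6.60 and 6.62 in sg1-IRF2, 6.90 and 6.97 in sg2-IRF2, 6.59 and 6.55 in sgAAVS1 and 6.76 and 6.87 in untransduced libraries, so that sg2-IRF2 was highest and sg1-IRF2 and sgAAVS1 lay together. It was 1.29-fold higher in sg2-IRF2 than in sgAAVS1 cells (0.36 ± 0.05, limma adjusted p = 0.00049, held in all 8 fits). The guides differed by -0.33 ± 0.05 (sg1-IRF2 minus sg2-IRF2, limma adjusted p = 0.003), a call lost without replicate 1 of sg1-IRF2 or replicate 2 of sg2-IRF2 (up to 0.13). In sgAAVS1 minus untransduced it was -0.24 ± 0.05 (limma adjusted p = 0.013, and 0.21 without untransduced replicate 2). Its calls for sg1-IRF2 minus untransduced (-0.21 ± 0.05, limma adjusted p = 0.031) and for the mean of both guides minus sgAAVS1 (0.20 ± 0.05, 0.035) were the least stable. Of 8 fits that left out 1 library, they were kept in 2 (those without an sgAAVS1 library) and in 1 (without sgAAVS1 replicate 1).

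BNIP3L had log2 values of 7.70 and 7.65 in sg1-IRF2, 7.79 and 7.87 in sg2-IRF2, 7.66 and 7.60 in sgAAVS1 and 7.80 and 7.80 in untransduced libraries, with sg2-IRF2 and untransduced libraries above the rest. It was 0.20 ± 0.05 higher in sg2-IRF2 than in sgAAVS1 cells (limma adjusted p = 0.019), and lost that call without either sg2-IRF2 library (up to 0.31). Its difference for sgAAVS1 minus untransduced was -0.17 ± 0.05 (limma adjusted p = 0.043), a call kept in 1 of the 8 fits, the one without sgAAVS1 replicate 1.

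Histone demethylases use oxygen as a substrate and several are induced by hypoxia. KDM3A had log2 values of 7.65 and 7.61 in sg1-IRF2, 7.90 and 7.92 in sg2-IRF2, 7.63 and 7.60 in sgAAVS1 and 7.90 and 7.84 in untransduced libraries, with sg2-IRF2 and untransduced libraries above all of the others. It was higher in sg2-IRF2 than in sgAAVS1 cells by 0.30 ± 0.05 (limma adjusted p = 0.00059, held in all 8 fits) and lower in sg1-IRF2 than in sg2-IRF2 cells by -0.28 ± 0.05 (0.0025, and up to 0.085 without replicate 2 of either guide). It was lower than in untransduced cells by -0.26 ± 0.05 in sgAAVS1 (limma adjusted p = 0.0023) and by -0.24 ± 0.05 in sg1-IRF2 cells (0.0033). The first of these was lost without untransduced replicate 1 (adjusted p = 0.08) and the other without that library or sg1-IRF2 replicate 2 (up to 0.091). KDM4B, which acts on histone H3 lysine 9 as well, had 7.67 and 7.60 in sg1-IRF2, 7.86 and 7.87 in sg2-IRF2, 7.65 and 7.64 in sgAAVS1 and 7.77 and 7.77 in untransduced libraries. The sg2-IRF2 libraries were above all others. KDM4B was higher in sg2-IRF2 than in sgAAVS1 cells by 0.23 ± 0.04 (limma adjusted p = 0.0059, and up to 0.11 without either sg2-IRF2 library). Its sg1-IRF2 minus sg2-IRF2 difference of -0.23 ± 0.04 (limma adjusted p = 0.0089) was lost without replicate 2 of sg1-IRF2 or either sg2-IRF2 library (up to 0.18). JMJD6, another oxygenase of the Jumonji family, was not called in any comparison.

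MXI1, which opposes MYC by pairing with MAX, had log2 values of 6.62 and 6.58 in sg1-IRF2, 6.91 and 6.86 in sg2-IRF2, 6.60 and 6.56 in sgAAVS1 and 6.89 and 6.89 in untransduced libraries. The sg2-IRF2 and untransduced libraries overlapped and were above the rest. MXI1 was higher in sg2-IRF2 than in sgAAVS1 cells by 0.31 ± 0.05 (limma adjusted p = 0.0012). It differed by -0.31 ± 0.05 for sgAAVS1 minus untransduced (limma adjusted p = 0.0013) and by -0.29 ± 0.05 for sg1-IRF2 minus untransduced (0.0017), and these calls held in all 8 fits. Between the guides it differed by -0.29 ± 0.05 (limma adjusted p = 0.0049), which was lost without sg1-IRF2 replicate 2 or either sg2-IRF2 library (up to 0.12).

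FUT11, a fucosyltransferase-family gene, had log2 values of 6.22 and 6.27 in sg1-IRF2, 6.66 and 6.63 in sg2-IRF2, 6.23 and 6.35 in sgAAVS1 and 6.35 and 6.46 in untransduced libraries. Unlike NDRG1 and MXI1, its sg2-IRF2 libraries stood above the untransduced ones, by 0.24 ± 0.06, which did not pass the test (limma adjusted p = 0.07). FUT11 was higher in sg2-IRF2 than in sgAAVS1 cells by 0.36 ± 0.06 (limma adjusted p = 0.0015) and lower in sg1-IRF2 than in sg2-IRF2 cells by -0.40 ± 0.06 (0.0012), and both calls held in all 8 fits. PPFIA4, a scaffold protein of the liprin family, had 4.94 and 4.98 in sg1-IRF2, 5.67 and 5.42 in sg2-IRF2, 4.98 and 5.08 in sgAAVS1 and 5.38 and 5.44 in untransduced libraries. The sg2-IRF2 and untransduced libraries overlapped and were above the others. It was higher in sg2-IRF2 than in sgAAVS1 cells by 0.52 ± 0.09 (limma adjusted p = 0.0017) and lower in sg1-IRF2 than in sg2-IRF2 cells by -0.58 ± 0.09 (0.0012), and both were lost without sg2-IRF2 replicate 1 (0.086 and 0.072). PPFIA4 also differed by -0.38 ± 0.09 for sgAAVS1 minus untransduced (limma adjusted p = 0.017, and up to 0.17 without either untransduced library) and by -0.45 ± 0.09 for sg1-IRF2 minus untransduced (0.0045, and up to 0.087 without sg1-IRF2 replicate 1 or untransduced replicate 2).

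VEGFA, the main growth factor for blood vessels, differed from those genes in sg1-IRF2 cells. Its log2 values were 8.80 and 8.71 in sg1-IRF2, 8.93 and 9.0 in sg2-IRF2, 8.65 and 8.40 in sgAAVS1 and 8.86 and 8.74 in untransduced libraries. The sgAAVS1 libraries were lower than the other 6. VEGFA was 1.36-fold higher in sg2-IRF2 than in sgAAVS1 cells (0.44 ± 0.06, limma adjusted p = 0.00028) and higher with both guides together by 0.34 ± 0.05 (0.0013), and both calls held in all 8 fits. For sg1-IRF2 minus sgAAVS1 it was 0.23 ± 0.06 (limma adjusted p = 0.14), and VEGFA was called there on the deposited values without aligned medians and after quantile normalization. sgAAVS1 minus untransduced was -0.28 ± 0.06 (limma adjusted p = 0.015), lost without sgAAVS1 replicate 2 or either untransduced library (up to 0.25).

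ADM, the vasodilator peptide adrenomedullin, had the widest log2 difference and the fewest reads, 186 over all 8 libraries. The reads were 9 and 15 in sg1-IRF2, 39 and 35 in sg2-IRF2, 10 and 19 in sgAAVS1 and 23 and 36 in untransduced libraries. On the log2 scale the values were 0.85 and 1.40 in sg1-IRF2, 2.78 and 2.72 in sg2-IRF2, 1.13 and 1.67 in sgAAVS1 and 2.06 and 2.69 in untransduced libraries. The sg2-IRF2 libraries were above all others, by a narrow margin over untransduced replicate 2. ADM was higher in sg2-IRF2 than in sgAAVS1 cells by 1.35 ± 0.31 (log2, limma adjusted p = 0.018, and up to 0.16 without either sg2-IRF2 library or sgAAVS1 replicate 1). It was lower in sg1-IRF2 than in sg2-IRF2 cells by -1.63 ± 0.31 (limma adjusted p = 0.0094, and up to 0.13 without sg1-IRF2 replicate 1 or either sg2-IRF2 library). For sg1-IRF2 minus untransduced it was -1.25 ± 0.31 (limma adjusted p = 0.023, and up to 0.28 without sg1-IRF2 replicate 1 or either untransduced library).

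CA9, carbonic anhydrase IX, which exports acid at the cell surface, had log2 values of 4.16 and 3.99 in sg1-IRF2, 4.63 and 4.58 in sg2-IRF2, 4.38 and 4.30 in sgAAVS1 and 4.53 and 4.79 in untransduced libraries. The sg1-IRF2 libraries were below all others. CA9 was lower in sg1-IRF2 than in untransduced cells by -0.59 ± 0.12 (limma adjusted p = 0.0044, and up to 0.12 without sg1-IRF2 replicate 2 or untransduced replicate 2) and lower than in sg2-IRF2 cells by -0.53 ± 0.12 (0.022, and up to 0.26 without any 1 of the libraries in those groups). Its exons overlap ARHGEF39 on the opposite strand, and the strand setting of the counting is not given in the sources used here. Of the collagen-modifying enzymes, P4HA1 was 0.20 ± 0.05 higher in sg2-IRF2 than in sgAAVS1 cells (limma adjusted p = 0.026). Its log2 values were 7.50 and 7.40 in sg1-IRF2, 7.64 and 7.68 in sg2-IRF2, 7.51 and 7.41 in sgAAVS1 and 7.62 and 7.63 in untransduced libraries, so that sg2-IRF2 was highest. That call was kept in 3 of the 8 fits, and lost without either sg2-IRF2 library, sgAAVS1 replicate 2 or either untransduced one (up to 0.29). P4HA1 also differed by -0.21 ± 0.05 for sg1-IRF2 minus sg2-IRF2 (limma adjusted p = 0.036) and by -0.17 ± 0.05 for sg1-IRF2 minus untransduced (0.044). Both calls were kept in the 2 fits without an sgAAVS1 library and lost without any 1 of the other libraries (up to 0.39 and 0.35). P4HA2 and PLOD2, which hydroxylate prolines and lysines of collagen, were not called in any comparison.

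ANKZF1, a protein of ribosome quality control, was higher in sg2-IRF2 than in sgAAVS1 cells by 0.23 ± 0.05 (limma adjusted p = 0.019). Its log2 values were 6.76 and 6.73 in sg1-IRF2, 6.94 and 6.95 in sg2-IRF2, 6.79 and 6.64 in sgAAVS1 and 6.82 and 6.81 in untransduced libraries, with sg2-IRF2 above all others. The call was lost without either sg2-IRF2 library or sgAAVS1 replicate 2 (up to 0.19), and GLB1L overlaps it on the opposite strand. WSB1, DDIT4, BHLHE40, AK4 and ANKRD37 were not called in any comparison. DDIT4, a stress-induced inhibitor of mTORC1, differed by -0.01 for sg2-IRF2 minus sgAAVS1 (95% interval -0.15 to 0.13). ANKRD37, which lies 0.921 Mb from IRF2 on chromosome 4, differed by 0.48 (0.17 to 0.79, limma adjusted p = 0.086). Its exons overlap UFSP2 on the opposite strand, which had 2370 reads over all libraries, against 683 for ANKRD37.

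Other genes known to be induced by hypoxia were drawn up as a separate list with earlier results known. Of 44 tested, 11 were higher and 1 (STC2) was lower in sg2-IRF2 than in sgAAVS1 cells, with a median difference of 0.10, where 1.79% of all genes were called higher and 1.62% lower. In sg1-IRF2 against sg2-IRF2 cells 5 were lower and 1 (STC2) higher, where 0.989% of all genes were called lower and 0.586% higher. In sgAAVS1 against untransduced cells 8 were lower and 1 (STC2) higher, where 2.36% were called lower and 2.06% higher. PNRC1, a nuclear receptor coregulator, was higher in sg2-IRF2 than in sgAAVS1 cells by 0.43 ± 0.07 (limma adjusted p = 0.00071), CCNG2, an unconventional cyclin of arrested cells, by 0.51 ± 0.08 (0.0012) and NFIL3, a basic leucine zipper repressor, by 0.36 ± 0.06 (0.0014). KLHL24 was higher by 0.28 ± 0.05 (limma adjusted p = 0.0016), and C10orf10, a FOXO-responsive gene with 17 and 19 reads in sgAAVS1 libraries, by 1.11 ± 0.22 (0.0058). STC2, a secreted glycoprotein that the stress factor ATF4 also induces, was lower by -0.56 ± 0.08 (limma adjusted p = 0.00024).

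Neighbouring pathways were also counted in sg2-IRF2 against sgAAVS1 cells, where 3.41% of all genes were called. Of 14 tested glycolysis genes outside the list, PCK2 (mitochondrial phosphoenolpyruvate carboxykinase) was lower by -0.22 ± 0.06 (limma adjusted p = 0.047) and none was higher. Over all genes 1.62% were called lower there and 1.79% higher. Of 29 genes of pyruvate dehydrogenase and the tricarboxylic acid cycle limma called 0, and limma-voom called 0. At an unadjusted p under 0.05 there were 4 of the 29, where 17.0% of all genes were. Of 7 genes of the pentose phosphate pathway limma called 0 in all 7 comparisons, where 0.791% to 5.34% of all genes were called, and limma-voom called 0. At an unadjusted p under 0.05 there were 0 of the 7, where 6.44% to 19.2% of all genes were. Lists of this size hold few calls at such shares, so the counts do not set these pathways apart from all genes.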

How the data were processed

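RNA-seq libraries were made from total RNA after DNase treatment and removal of ribosomal RNA, with a directional kit, per the labels' protocols. Of tools and builds, cutadapt, Bowtie2 and hg38 are named, per the submitters' processing notes. The counting tool, strand setting and duplicate handling are not stated there. Each deposited value is the log2 of a gene's reads after scaling by a library factor, as the values themselves show: 100% were whole multiples of 1 read (tolerance 0.01 read), with genes without reads listed at 0.9 read. The 47 members and all other gene lists were chosen with earlier results of these data known. Reads used for depth were recovered from the log2 values.

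Genes with a mean log2 of at least 0 (14665 of 35805) were tested. Library medians over these genes were aligned, and a model of the 4 groups over all 8 libraries was fitted with limma 3.58.1 (R 4.3.3) with a mean-variance trend, giving 4 residual and 14.9 prior degrees of freedom. Two-sided p-values had Benjamini-Hochberg adjustment over all tested genes, and those under 0.05 were called. Errors are the standard errors of that model with 2 libraries a group, and intervals are 95%. The steps were run on simulated data, and no result of that run is used here as evidence for the calls. Replicate numbers were not used to pair libraries. Exonic lengths came from GENCODE 29, and promoters from RefSeq GRCh38.p14. Members called in any comparison are named, with fixed representatives of the others. Alternatives were other scaling, other filters, 1 read added before the log, no trend, limma-voom, a replicate block and leaving out each library.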

Additional observations from a re-analysis of the deposited data

Results flagged for a closer look

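The guides to IRF2 differed from each other at 17 members, by the test of sg1-IRF2 against sg2-IRF2 itself, and each was lower in sg1-IRF2 cells. The log2 differences (sg1-IRF2 minus sg2-IRF2) were -0.37 for HK2 and -0.31 for ENO2 among the enzymes. Among transporters and regulators they were -0.22 for SLC2A3, -0.31 for PFKFB4, -0.31 for PDK1 and -0.48 for GBE1, and EGLN3 had -0.35. Among the other targets they were -0.60 for NDRG1, -0.28 for KDM3A, -0.23 for KDM4B, -0.58 for PPFIA4, -0.40 for FUT11 and -1.63 for ADM. BNIP3 had -0.33, CA9 -0.53, P4HA1 -0.21 and MXI1 -0.29. Of the 17, HK2, GBE1, NDRG1 and FUT11 kept their calls in all 8 fits that left out 1 library. For IRF2 itself the same difference was -1.88 (log2, limma adjusted p = 0.0001). Whether the members' difference follows from that was not tested.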

How the results depend on the processing

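Of 1005 pairs of a member call and an alternative, 772 kept the call, 233 lost it and none changed direction. Without the mean-variance trend 0 members were called in any comparison (the 60 genes called over all in sg2-IRF2 against sgAAVS1 compare with 500). Without a filter on low values, which tests more genes, 9 members were called in sg2-IRF2 against sgAAVS1, 1 with both guides against sgAAVS1, 7 in sg1-IRF2 against sg2-IRF2, 4 in sgAAVS1 against untransduced and 7 in sg1-IRF2 against untransduced. In sg1-IRF2 against sgAAVS1, 2 were called on deposited values, after quantile normalization and with a replicate block, against 1, and in sg2-IRF2 against untransduced 1 was called on deposited values, against 0. Deposited values without aligned medians gave 1952 genes over all in sg1-IRF2 against sg2-IRF2, against 231, with 14 members lower and 3 (VHL, PFKP and DDIT4, seen after the fact) higher. They gave 1196 genes in sg2-IRF2 against sgAAVS1, against 500, and 1346 in sg1-IRF2 against untransduced, against 783. The cause of these shifts was not tested.

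Leaving out 1 library gave 0 to 3 members in sg1-IRF2 against sgAAVS1, 10 to 28 in sg2-IRF2 against sgAAVS1, 2 to 13 with both guides and 5 to 24 in sg1-IRF2 against sg2-IRF2. It gave 4 to 16 in sgAAVS1 against untransduced, 5 to 20 in sg1-IRF2 against untransduced and 0 to 5 in sg2-IRF2 against untransduced. The highest counts in the comparisons with sgAAVS1 came without sgAAVS1 replicate 1, and the lowest in sg2-IRF2 against sgAAVS1 without either sg2-IRF2 library (10 each). Groups left with 1 library were assumed to vary like the rest. Correlations of same-numbered deviations were 0.216 for sg1-IRF2 with sgAAVS1 and ran from -0.0794 to 0.0244 for the other pairs of groups. Whether same-numbered libraries of sg1-IRF2 and sgAAVS1 share a source of variation was not tested. The replicate block gave 18 members in sg2-IRF2 against sgAAVS1 and 18 in sg1-IRF2 against sg2-IRF2. Depth limits ADM (186 reads in all) and PLOD2 (415) most.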

Other observations

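A list of ATF4 targets and genes of the unfolded protein response, which shares STC2 and VLDLR with the list of other hypoxia-induced genes, was also examined. Of 17 tested, 6 (STC2 among them) were higher and none lower in sg1-IRF2 than in sg2-IRF2 cells, where 0.586% of all genes were called higher. The median difference over the 17 was 0.15, and 5 of the 17 differences were negative. CHAC1, a glutathione-degrading enzyme, had log2 values of 4.41 and 4.56 in sg1-IRF2, 3.58 and 3.30 in sg2-IRF2, 4.15 and 4.50 in sgAAVS1 and 3.78 and 3.94 in untransduced libraries. Its sg1-IRF2 minus sg2-IRF2 difference was 1.05 ± 0.15 (limma adjusted p = 0.00055). The serine synthesis enzymes PSAT1 and PHGDH were higher by 0.39 ± 0.05 (limma adjusted p = 0.00035) and 0.33 ± 0.05 (0.0024). In sg2-IRF2 against sgAAVS1 cells CHAC1 (-0.89 ± 0.15), PSAT1 (-0.25 ± 0.05) and STC2 were lower and none was higher (limma adjusted p = 0.0012 for CHAC1 and 0.011 for PSAT1). That is 3 of the 17 tested, where 1.62% of all genes were called lower. This list was chosen with earlier results known.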
